A study of Mus musculus with 6 samples.

Results

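The 35 genes described here encode the enzymes and transporters of glycolysis and the proteins of the cellular response to low oxygen. They were taken as a named list by matching symbols to the identifiers of a count table of 55401 genes, and all 35 were found and passed the filter on low counts. RNA had been sequenced from knee articular cartilage of mice aged 10 weeks, in 3 libraries labelled WT and 3 labelled adseverin knockout (cKO). The product of Scin, adseverin, severs and caps actin filaments. Mice of both genotypes had been given tamoxifen, 1.5 mg per 10 g body weight, on each of 5 days beginning at 8 weeks. The sources used here do not give the Cre driver, the deleted exons or any pooling of mice. Whether the samples came from separate mice is not stated, and p-values therefore reflect only sample-to-sample spread, which may be technical.

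Articular cartilage has no blood vessels, and its chondrocytes live at low oxygen and draw most of their ATP from glycolysis. In that pathway glucose enters through transporters of the SLC2A family, is trapped by hexokinase, committed by phosphofructokinase, split and oxidised to pyruvate, and largely reduced to lactate, which leaves through SLC16A transporters. When oxygen is low, the prolyl hydroxylases encoded by the Egln genes no longer mark the alpha subunits HIF-1α (Hif1a) and HIF-2α (Epas1) for destruction. These proteins then pair with ARNT and bind the short motif ACGTG or GCGTG, and many glycolytic genes are among their targets.

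Scin itself measured 186.1, 185.5 and 219.3 CPM in WT 1 to 3 and 39.09, 29.89 and 29.42 CPM in cKO 1 to 3, where CPM is the read count scaled to library size and composition. It fell to 16.6% of the WT level (log2 fold change -2.59 ± 0.14, SE; adjusted p = 6.59e-04 by the edgeR quasi-likelihood test with Benjamini-Hochberg adjustment), and each library matched its label. Scin was the 1 gene of 16260 tested with an adjusted p under 0.05. The libraries held 22664828 to 31014996 reads. The labels give the cells as native articular chondrocytes. Cartilage markers such as Col2a1, Acan and Chad were abundant, at 14450 to 20600, 707.8 to 1440 and 21440 to 24910 CPM. Matn1, Matn3 and Epyc of the same list were low, at 1.748 to 3.94, 2.455 to 8.559 and 0 to 1.448 CPM. Markers of osteoblasts and osteocytes were abundant too, with a summed level of 41710 to 52200 CPM, and each of the 9 lists of markers of other cell types had detected members. In bulk RNA, fewer cells of a type and less RNA per cell cannot be told apart.

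Most of the 35 genes had fitted differences near 0, and a small group lay lower in cKO. That group was Pfkfb3, Hk2, Slc16a3 and Ddit4, with Hif1a by a smaller margin. None of the 35 genes passed the threshold: 0 had an adjusted p under 0.05, against 0.00615% of all genes tested, and their adjusted p-values ran from 0.533 to 0.994 (edgeR quasi-likelihood test, Benjamini-Hochberg). At an unadjusted p under 0.05, 5 of the 35 (14.3%) lay lower, beside 2.96% of all genes tested, and 0 lay higher, beside 3.54% of all genes (6.50% in either direction). All 3 cKO values lay below all 3 WT values for 6 of the 35 (17.1%, against 5.89% of all genes), and the reverse held for 0 (6.41% of all genes). The sign was negative for 20 genes (57.1%, against 49.4% of all genes) and positive for 15, with a median log2 fold change of -0.0264 beside 0.0037 over all genes. For 24 of the 35 the log2 fold change was within 0.2 of 0.

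**Figure D1:**
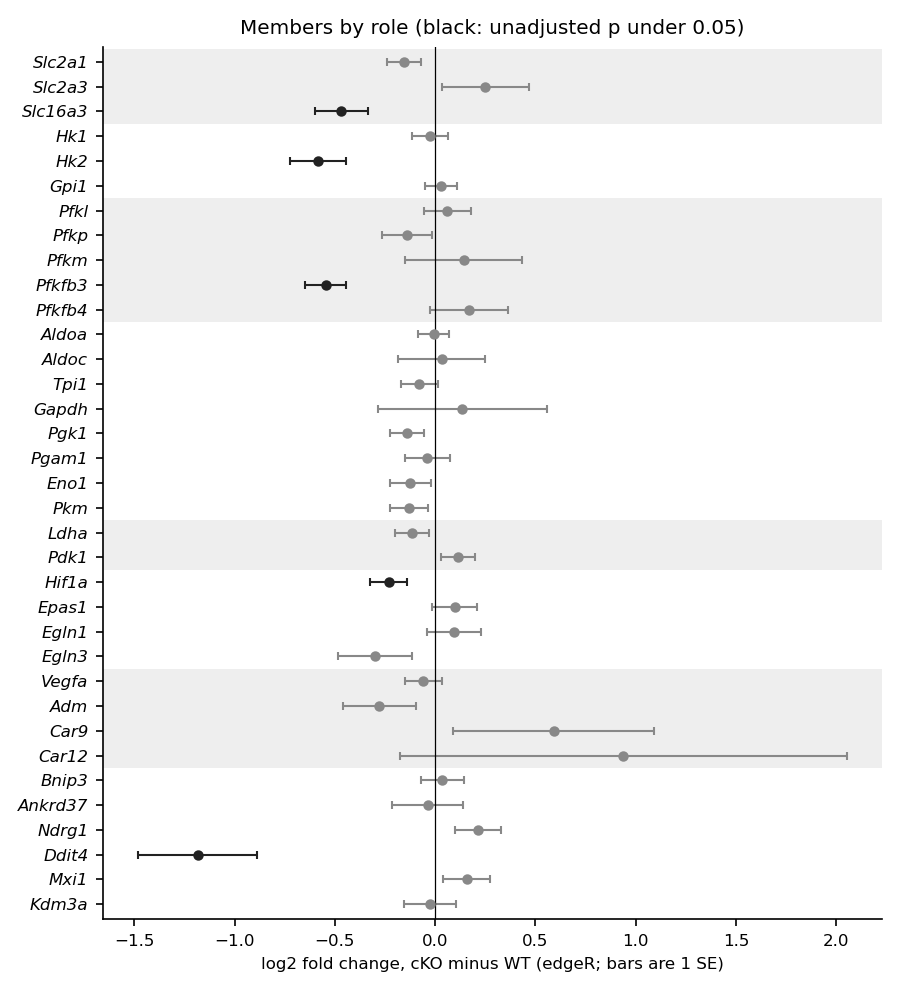
Log2 fold changes (cKO minus WT, horizontal axis) of the 35 genes, in order of role, with bars of 1 SE from the edgeR fit over all genes; black marks an unadjusted p under 0.05. The 5 black points, Slc16a3, Hk2, Pfkfb3, Hif1a and Ddit4, all lie left of 0, and Car9 and Car12 have the widest bars.

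The 250 bases before the annotated start are shown for 6 genes: Pfkfb3, Hk2, Slc16a3 and Ddit4, which had the lowest cKO values relative to WT, and Ldha and Bnip3, 2 textbook HIF targets whose levels were close in both genotypes. All sequences are from RefSeq (GRCm38.p6) and read 5′ to 3′ on the gene's strand. Capitals mark ACGTG or GCGTG on that strand and CACGT or CACGC, the same motifs on the other strand. CACGTG holds the motif on both strands and counts as 2 matches. The windows are chr2:11502091-11502340 on the minus strand for Pfkfb3 (the start site with the most matches of 2), chr6:82774455-82774704 on the minus strand for Hk2, chr11:120948817-120949066 on the plus strand for Slc16a3, chr10:59951835-59952020 on the minus strand for Ddit4 (186 bases, from 250 to 65 before the start), chr7:46845554-46845803 on the plus strand for Ldha (likewise the start site with the most matches of 2) and chr7:138909507-138909756 on the minus strand for Bnip3.
Pfkfb3: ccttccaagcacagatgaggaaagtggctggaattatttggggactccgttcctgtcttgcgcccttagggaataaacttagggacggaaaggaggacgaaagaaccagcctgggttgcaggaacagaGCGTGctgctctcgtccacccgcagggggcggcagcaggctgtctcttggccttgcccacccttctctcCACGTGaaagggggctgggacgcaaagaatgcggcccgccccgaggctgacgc
Hk2: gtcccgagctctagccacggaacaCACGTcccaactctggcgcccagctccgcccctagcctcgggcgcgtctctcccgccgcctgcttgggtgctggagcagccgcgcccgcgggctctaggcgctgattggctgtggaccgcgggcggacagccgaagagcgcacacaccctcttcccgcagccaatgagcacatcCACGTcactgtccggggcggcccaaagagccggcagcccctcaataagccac
Slc16a3: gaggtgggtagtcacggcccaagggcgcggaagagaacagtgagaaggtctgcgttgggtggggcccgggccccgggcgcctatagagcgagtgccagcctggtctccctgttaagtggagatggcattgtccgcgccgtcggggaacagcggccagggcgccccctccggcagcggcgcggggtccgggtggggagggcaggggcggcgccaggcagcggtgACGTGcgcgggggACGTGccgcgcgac
Ddit4: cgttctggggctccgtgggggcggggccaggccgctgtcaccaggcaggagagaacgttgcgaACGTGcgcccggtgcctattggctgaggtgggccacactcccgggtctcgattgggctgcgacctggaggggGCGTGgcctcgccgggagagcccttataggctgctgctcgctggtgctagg
Ldha: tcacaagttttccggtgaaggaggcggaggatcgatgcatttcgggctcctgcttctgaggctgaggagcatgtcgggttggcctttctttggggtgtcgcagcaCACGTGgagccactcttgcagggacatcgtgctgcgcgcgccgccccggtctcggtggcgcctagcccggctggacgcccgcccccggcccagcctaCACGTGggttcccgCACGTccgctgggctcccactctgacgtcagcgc
Bnip3: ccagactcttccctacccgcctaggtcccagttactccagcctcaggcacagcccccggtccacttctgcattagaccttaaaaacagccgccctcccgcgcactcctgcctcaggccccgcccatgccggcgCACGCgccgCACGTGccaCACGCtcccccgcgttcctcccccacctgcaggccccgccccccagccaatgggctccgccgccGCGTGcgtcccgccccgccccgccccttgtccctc

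Pfkfb3 held 3 matches, Hk2, Slc16a3 and Ddit4 held 2 each, and Ldha and Bnip3 held 5 each. The other start sites of Pfkfb3 and Ldha held 1 match each. RefSeq windows were matched for 32 of the 35 genes, at 50 start sites, and not for Slc2a3, Epas1 and Ndrg1. The 5 matches of Ldha and of Bnip3 were the most at any of these start sites. Other genes with overlapping groups held fewer, such as 0 for Gpi1 and Tpi1, 2 for Egln1 and 4 for Ankrd37. At least 1 match stood before 38 of those 50 start sites (76%), beside 38.6% of all 32851 start sites and 44% of the 21263 start sites of protein-coding genes. For ACGTG alone the shares were 46% of the 50 start sites, 16.6% of all start sites and 17.8% of those of protein-coding genes. These matches describe the letters in the windows only, since binding was not measured here.

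Among the 3 transporter genes of the 35, the values of the lactate exporter did not overlap between genotypes and those of the 2 glucose carriers did; the difference between these genes was not tested. Slc16a3 (chromosome 11, 120948480 to 120960868, GRCm38), which encodes the lactate and proton exporter MCT4, measured 76.85, 88.06 and 93.10 CPM in WT 1 to 3 and 52.60, 62.35 and 71.40 CPM in cKO 1 to 3. Every cKO value lay below every WT value, with a log2 fold change of -0.47 ± 0.13 (unadjusted p = 0.00702; edgeR adjusted p = 0.658). Slc2a1, the basal glucose transporter GLUT1, stood at 123.0, 123.4 and 113.0 CPM in WT and 101.2, 108.3 and 113.0 CPM in cKO. The lowest WT library and the highest cKO library met at the same level, and the log2 fold change was -0.16 ± 0.09. Slc2a3, the high-affinity transporter GLUT3, spread widely, at 29.18 to 50.74 CPM in WT and 39.49 to 57.38 CPM in cKO.

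Hexokinase phosphorylates glucose so that it stays in the cell. Hk2, the regulated isoenzyme, lay lower while Hk1, the constitutive form, did not, and the difference between these genes was not tested. Hk2 (chromosome 6, 82725025 to 82774454) measured 28.39, 26.90 and 34.05 CPM in WT and 20.37, 18.76 and 20.42 CPM in cKO. The cKO libraries clustered tightly below the WT range (log2 fold change -0.59 ± 0.14; unadjusted p = 0.0028; edgeR adjusted p = 0.605). Hk1 measured 166.7, 151.7 and 163.1 CPM in WT and 172.5, 146.9 and 153.5 CPM in cKO, with overlapping groups and a log2 fold change of -0.03 ± 0.09. Gpi1, which converts glucose 6-phosphate to fructose 6-phosphate, likewise overlapped. It measured 240.6, 221.8 and 237.5 CPM in WT and 226.4, 238.3 and 249.4 CPM in cKO.

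At the committed step the phosphofructokinase genes overlapped, and the activator gene Pfkfb3 lay lower, a difference between genes that was not tested. PFKFB enzymes make and remove fructose 2,6-bisphosphate, the main allosteric activator of phosphofructokinase, and the PFKFB3 form strongly favours its synthesis. Pfkfb3 (chromosome 2, 11471433 to 11554077) measured 99.69, 102.0 and 116.5 CPM in WT and 79.65, 68.44 and 69.98 CPM in cKO. Its log2 fold change was -0.55 ± 0.10, with the smallest unadjusted p of the 35 genes, 0.000628 (edgeR adjusted p = 0.533). With DESeq2, which the submitters' notes also name, Pfkfb3 passed the threshold (adjusted p = 0.00447), the 1 gene of the 35 to do so. DESeq2 passed 91 genes in all, where edgeR passed 1, and gave no adjusted p for 11621 genes. Pfkfb4, a paralogue, stood at 22.09, 15.14 and 14.17 CPM in WT and 18.24, 18.83 and 20.76 CPM in cKO, so the groups overlapped and WT 1 was the highest of all (log2 fold change 0.17 ± 0.20). Pfkl, the most abundant phosphofructokinase per length, measured 340.9, 326.8 and 392.8 CPM in WT and 320.9, 419.6 and 365.3 CPM in cKO. For Pfkp the ranges were 137.7 to 186.5 CPM in WT and 134.9 to 151.6 CPM in cKO, and both Pfkl and Pfkp overlapped. An antisense gene, Gm10851, overlaps Pfkfb3 and had 111 reads in all 6 libraries. The sources used here do not give the strand setting of the counting.

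**Figure D2:**
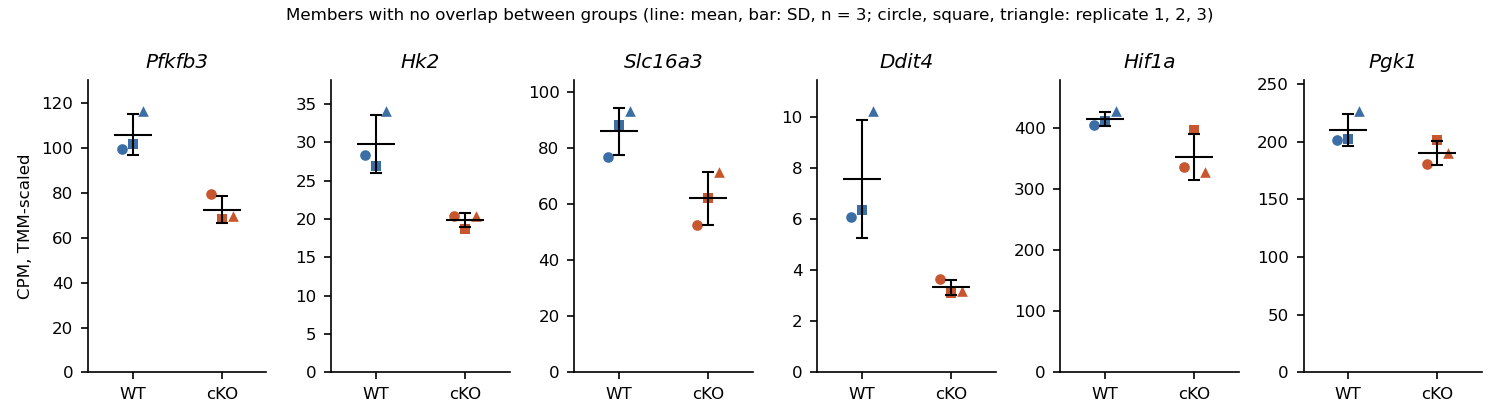
CPM (vertical axes, from 0) of the 6 genes whose groups did not overlap, in WT and cKO; circle, square and triangle are replicates 1, 2 and 3, the line is the mean and the bar the SD (n = 3 per group). WT 3 is the highest library for all 6 genes, and the gap between groups is narrowest for Pgk1, where WT 1 stood at 201.8 CPM and cKO 2 at 201.3 CPM.

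Several genes of the lower arm, from aldolase to pyruvate kinase, had high levels and small differences, as did Ldha beyond it. Per kilobase of annotated exon, Ldha averaged 369.1 RPKM over the 6 libraries and ranked 82 among the 16260 genes. Aldoa averaged 358.6 RPKM, Pkm 285.5 RPKM, Tpi1 149.4 RPKM and Eno1 135.7 RPKM. Gapdh and Aldoc of that arm were low, at 2.289 and 5.303 RPKM. Aldoa, which splits fructose 1,6-bisphosphate, measured 1005, 1079 and 1055 CPM in WT and 966.9, 1102 and 1056 CPM in cKO, a log2 fold change of -0.01 ± 0.08. Its values interleaved completely. Pgk1 (chromosome X, 106187100 to 106203699), the first ATP-yielding enzyme, measured 201.8, 202.1 and 226.4 CPM in WT and 180.4, 201.3 and 190.2 CPM in cKO. The groups did not overlap, but the difference was small (log2 fold change -0.14 ± 0.08; unadjusted p = 0.135; edgeR adjusted p = 0.85). Pkm, the pyruvate kinase gene of most tissues, ranged from 1399 to 1659 CPM in WT and from 1285 to 1481 CPM in cKO. Eno1, which makes phosphoenolpyruvate, lay at 707 to 832.3 CPM in WT and 620.9 to 768.5 CPM in cKO. Tpi1, Pgam1 and Aldoc had log2 fold changes of -0.08 ± 0.09, -0.04 ± 0.11 and 0.03 ± 0.22, each with overlapping groups.

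Ldha and Pdk1 steer pyruvate away from the mitochondrion, the first by reducing it to lactate and the second by phosphorylating pyruvate dehydrogenase. Ldha measured 1164, 1308 and 1341 CPM in WT and 1115, 1256 and 1147 CPM in cKO, a log2 fold change of -0.12 ± 0.09. Pdk1 measured 115.1, 123.7 and 121.9 CPM in WT and 121.8, 129.4 and 138.7 CPM in cKO, a log2 fold change of 0.11 ± 0.08. Both overlapped, and they lay on opposite sides of 0.

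**Figure D3:**
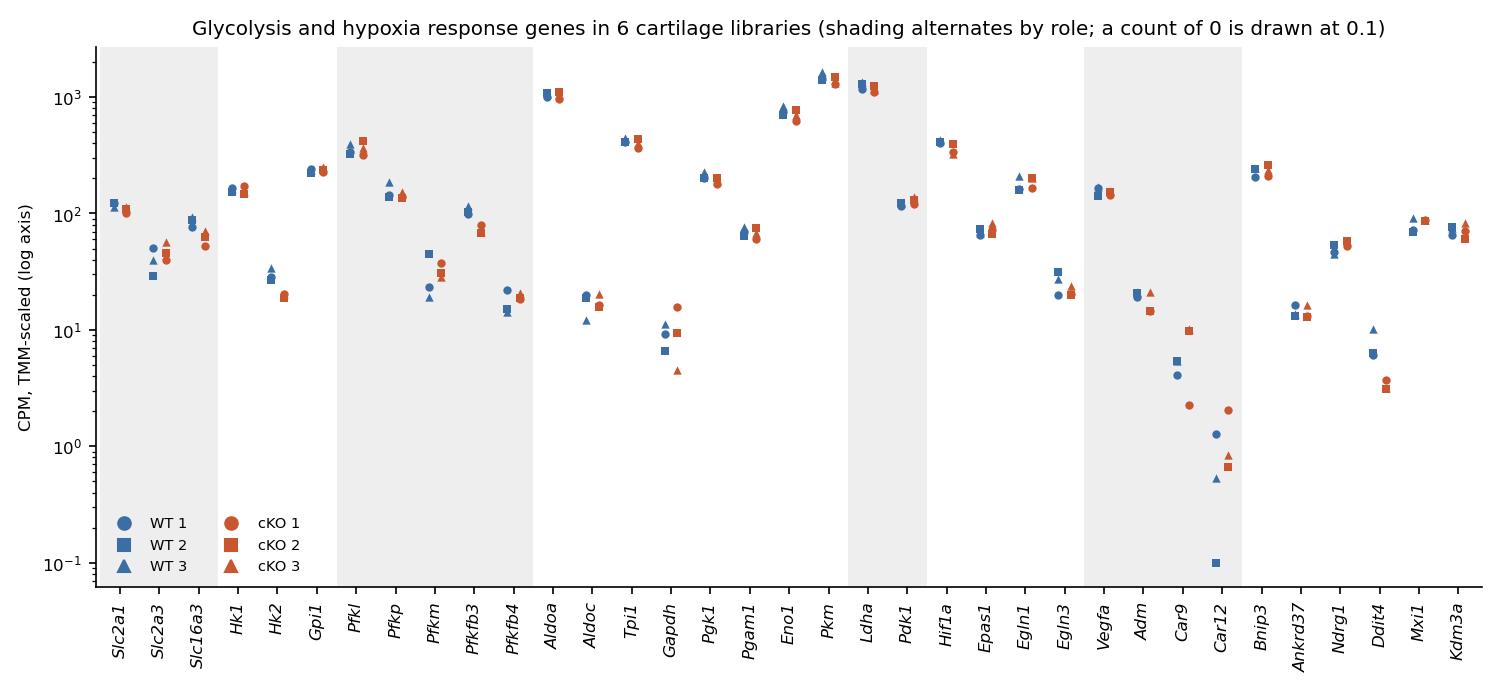
CPM (log axis) of the 35 genes in each of the 6 libraries, WT in blue and cKO in red, with circle, square and triangle for replicates 1, 2 and 3 and a count of 0 drawn at 0.1. Levels span from Car12, at 0 to 2.037 CPM, to Pkm, at 1285 to 1659 CPM.

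Of the 2 HIF alpha subunits, Hif1a lay lower and Epas1 did not, and the difference between these genes was not tested. Hif1a (chromosome 12, 73901375 to 73947530) measured 405.6, 411.9 and 427.4 CPM in WT and 335.8, 396.6 and 327.4 CPM in cKO. The groups did not overlap, although cKO 2 came close to WT 1 (log2 fold change -0.23 ± 0.09; unadjusted p = 0.0338; edgeR adjusted p = 0.715). With single libraries left out, its unadjusted p ran from 0.00525 without cKO 2 to 0.108 without cKO 3, and it was under 0.05 in 1 of those 6 fits. Hif1a lies on the same chromosome as Scin (40059769 to 40134228), as does Egln3 (54178981 to 54203860). Any part of this position in their levels was not tested. Epas1 measured 65.11, 73.62 and 68.17 CPM in WT and 72.39, 66.00 and 83.04 CPM in cKO, a log2 fold change of 0.10 ± 0.11. HIF-1α is controlled mainly through protein stability, which RNA levels do not report. Egln1, the main HIF prolyl hydroxylase, ranged from 160.6 to 210.5 CPM in WT and from 164.3 to 203.0 CPM in cKO. Egln3, a hydroxylase gene that HIF itself induces, ranged from 20.03 to 31.28 CPM in WT and from 19.92 to 23.61 CPM in cKO.

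The secreted and pH-regulating targets overlapped between genotypes. Vegfa, the angiogenic growth factor, measured 164.4, 140.6 and 167.8 CPM in WT and 144.5, 153.1 and 156.3 CPM in cKO, a log2 fold change of -0.06 ± 0.09. Adm, the vasodilator peptide adrenomedullin, was at 19.25 to 20.94 CPM in WT and at 14.57 to 21.05 CPM in cKO, with 2 cKO libraries below WT and cKO 3 above it. The membrane carbonic anhydrase gene Car9 measured 4.056, 5.397 and 5.358 CPM in WT and 2.258, 9.843 and 10.17 CPM in cKO. Its cKO libraries thus fell on both sides of WT, with cKO 1 the lowest and the other two the highest. Without cKO 1 its log2 fold change was 1.02 rather than 0.59. Car12, a related enzyme gene, was barely detected, with 36, 0 and 14 reads in WT and 46, 20 and 20 reads in cKO. Its log2 fold change of 0.94 ± 1.11 ran from 0.295 to 2.0927 with single libraries left out and was 1.8393 with limma-voom.

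Among the remaining HIF-driven genes, Ddit4 lay lower and the rest overlapped, a difference between genes that was not tested. Ddit4 (chromosome 10, 59949669 to 59951834) encodes REDD1, an inhibitor of mTORC1 that hypoxia, glucocorticoids and energy stress induce. It measured 6.084, 6.362 and 10.22 CPM in WT and 3.675, 3.127 and 3.181 CPM in cKO, from 171, 145 and 269 reads and 83, 95 and 76 reads. The log2 fold change of -1.18 ± 0.30 had the largest size among the 35 genes (unadjusted p = 0.00368; edgeR adjusted p = 0.605), and it was -0.90 without WT 3. Bnip3, a mitophagy receptor, measured 204.6, 239.2 and 245.7 CPM in WT and 210.4, 259.6 and 236.1 CPM in cKO, with the groups interleaved (log2 fold change 0.03 ± 0.11). Ndrg1, Mxi1, Kdm3a and Ankrd37 had log2 fold changes of 0.21 ± 0.11, 0.16 ± 0.12, -0.02 ± 0.13 and -0.04 ± 0.18. Of these, Kdm3a encodes a histone demethylase and Mxi1 a MYC antagonist.

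Pfkfb3, Hk2, Slc16a3 and Ddit4 kept an unadjusted p under 0.05 with each of the 6 libraries left out in turn, but the libraries also differed within each genotype. WT 3 had the highest value for 15 of the 35 genes and cKO 1 the lowest for 12. The summed level of the 35 was 7727, 7890 and 8604 CPM in WT and 7148, 8113 and 7660 CPM in cKO, so the totals overlapped. The log2 fold changes without WT 3 were -0.47 for Pfkfb3, -0.48 for Hk2 and -0.41 for Slc16a3.

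Isoenzyme use was compared as each gene's share of the reads per kilobase within its step, which is a description with no test. Within the PFKFB genes, Pfkfb3 held 69.8%, 75.3% and 78.3% in WT and 67.4%, 63.6% and 61.9% in cKO, and Pfkfb4 held 18.7% ± 4.76 and 26.5% ± 2.34 (SD, n = 3). Within the hexokinase genes, Hk2 held 17.0%, 17.7% and 20.7% in WT and 13.1%, 13.3% and 13.8% in cKO, while Hk1 held 69.7% ± 0.204 and 74.3% ± 2.8. Slc16a3 held 72.6%, 80.2% and 78.9% of the monocarboxylate transporter genes in WT and 61%, 71.4% and 71.8% in cKO. The shares of Pfkfb3, Hk2 and Slc16a3 lay lower in cKO with no overlap, and those of Hk1, Pfkfb2 and Slc2a12 higher with no overlap. Shares within a step add up to the whole, so a fall in some shares raises others. In CPM, Hk1 and Pfkfb2 overlapped between genotypes, Pfkfb2 at 6.888 to 8.474 CPM in WT and 7.91 to 9.086 CPM in cKO. Among the alpha subunit genes Hif1a, Epas1 and Hif3a, Hif1a held 85.1% ± 0.811 in WT and 81.7% ± 3.02 in cKO. In 3 other steps the dominant form held a close share in both genotypes: Pfkl held 72.1% and 73%, Ldha 84.1% and 83.2%, and Aldoa 98.6% and 98.5%, as means of WT and cKO.

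**Figure D4:**
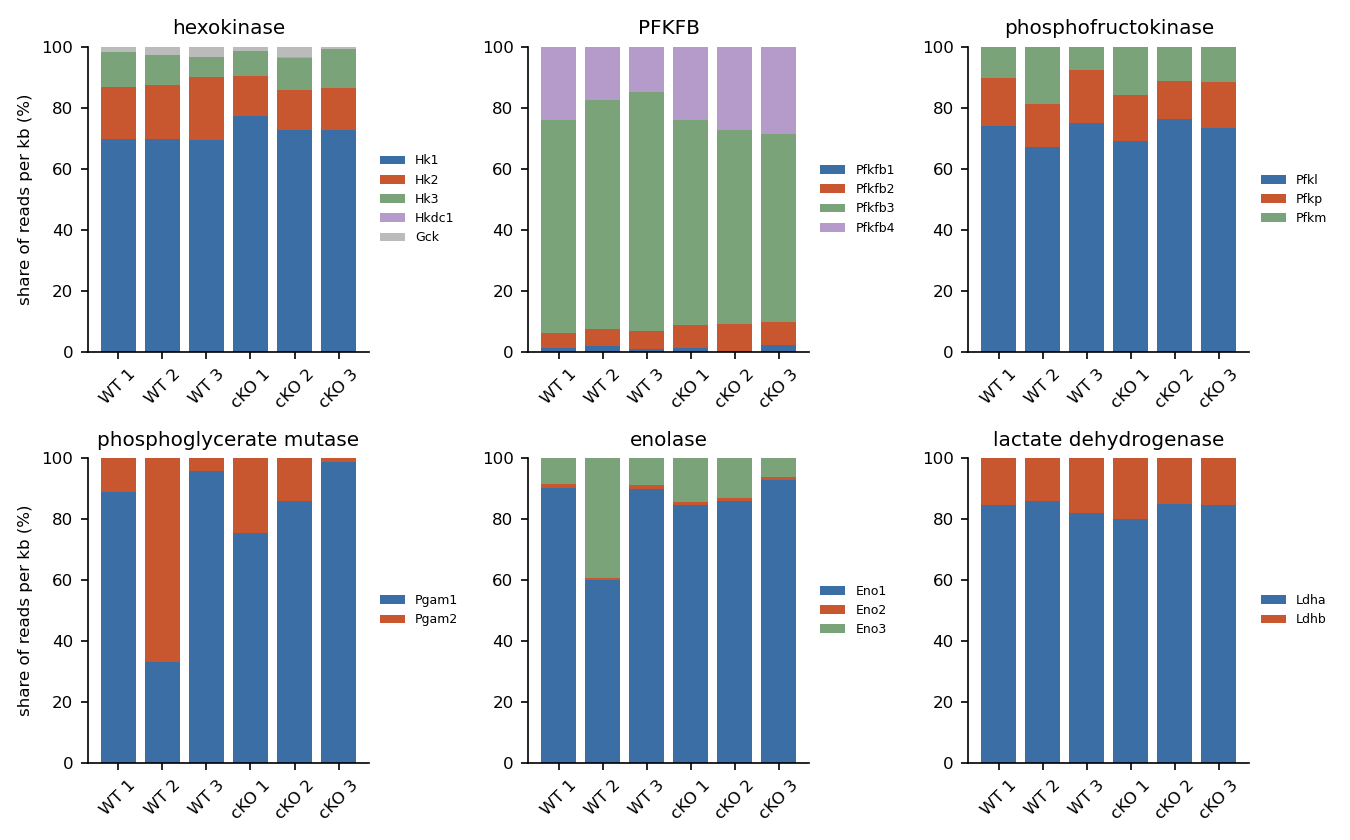
Share of reads per kilobase of exon (vertical axis, percent) held by each isoenzyme gene within 6 steps, as 1 stacked bar per library. Hk2 and Pfkfb3 take smaller shares in each cKO library than in each WT library, and the muscle forms Pgam2 and Eno3 take 67% and 39.3% in WT 2.

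WT 2 stood apart in the muscle forms of these enzymes. Pgam2 measured 65.6 RPKM there and 0.4484 to 10.01 RPKM elsewhere, and Eno3 measured 86.19 RPKM there and 8.688 to 21.94 RPKM elsewhere. The summed level of 20 skeletal muscle markers was 1960 CPM in WT 2 and 100.6 to 390 CPM in the other libraries. Pfkm, the muscle phosphofructokinase and 1 of the 35 genes, measured 23.55, 44.97 and 19.27 CPM in WT and 37.19, 30.85 and 28.71 CPM in cKO. Its log2 fold change of 0.14 ± 0.29 became 0.58 without WT 2 (unadjusted p = 0.0127; edgeR adjusted p = 0.793), where all 3 cKO values lay above both remaining WT values. The part of muscle RNA in this was not tested.

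Gapdh, usually among the most abundant glycolytic transcripts, was counted at a low level. It measured 9.179, 6.537 and 11.32 CPM in WT and 15.76, 9.448 and 4.52 CPM in cKO, from 1456 reads in all, and per kilobase of annotated exon it averaged 2.289 RPKM, rank 9362 of the genes tested. The neighbouring enzymes Tpi1 and Pgk1 averaged 149.4 and 89.29 RPKM. Of all 50-base stretches of the principal Gapdh transcript (GENCODE M21), 90.4% also occur in transcripts of 222 other genes, of which 213 are pseudogenes. Those 222 genes together had 3517 reads. The sources used here do not say how reads that map to several places were counted, and the part of shared sequence in the low count was not tested.

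The same measure was 72.2% for Eno1, 68% for Pgk1, 48.9% for Bnip3, 41.5% for Pgam1 and 30.5% for Pkm. All 5 had far higher counts than Gapdh. For the principal transcripts of Hk2, Slc16a3, Ddit4 and Hif1a it was 0%, and for Pfkfb3 0.654%. These percentages leave out genes that overlap the gene itself. Over all its transcripts, Hif1a shared 5.74% of its stretches with the overlapping genes Gm15283 and Gm49321, which had 120 and 0 reads. For Pkm the genes that share stretches had 15011 reads, 14913 of them at Gm6560, beside 221043 reads at Pkm. For Eno1, Pgk1, Bnip3 and Pgam1 those genes had 902, 16, 143 and 26 reads, beside 113172, 30971, 35947 and 10668 reads at the genes themselves. The levels of Gapdh, Eno1, Pgk1, Bnip3, Pgam1 and Pkm are uncertain to the extent that reads matching several places were split with their copies or left out.

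**Figure D5:**
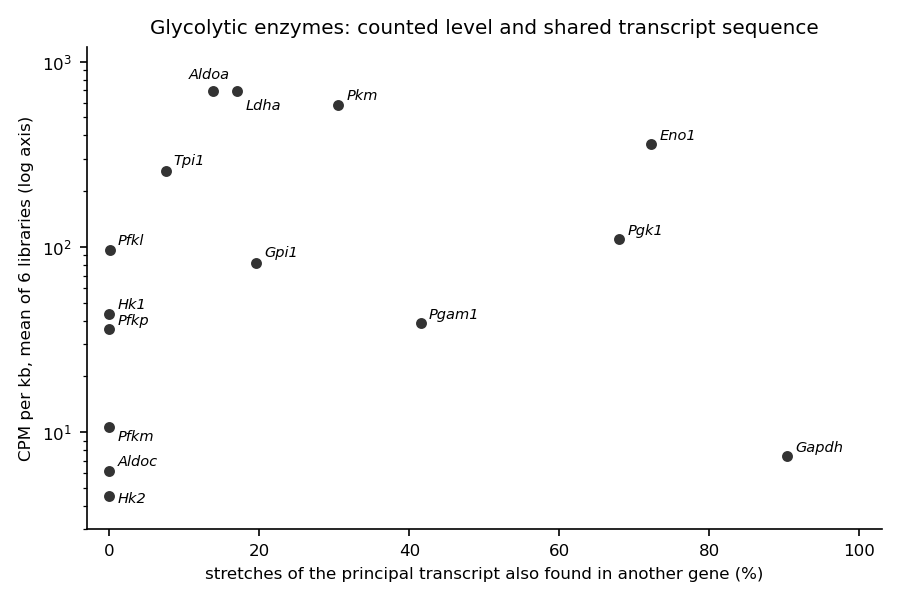
Mean CPM per kilobase of the principal transcript over 6 libraries (vertical, log axis) against the percentage of its 50-base stretches that also occur in another gene's transcript (horizontal axis), 1 point per glycolytic enzyme gene. Gapdh lies at the far right at 90.4% and 7.438 CPM per kilobase, while Eno1 at 72.2% stands at 360.1 CPM per kilobase.

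In 6 further lists of sugar metabolism and the oxygen response, 0 genes had an adjusted p under 0.05. At an unadjusted p under 0.05 each list held 1 to 3 genes, to be read against 2.96% of all genes lower, 3.54% higher and 6.50% in either direction, so the genes named are given as values and nothing is read from the counts. Of 27 tested isoenzymes and transporters outside the 35 genes, 1 had an unadjusted p under 0.05 and lay lower: Pgm1, which links glycogen to glycolysis, at 90.87, 102.5 and 109.6 CPM in WT and 71.55, 82.56 and 75.63 CPM in cKO (log2 fold change -0.40 ± 0.10). The glucose transporter gene Slc2a12 did not pass that measure, but its groups did not overlap, at 3.838 to 4.447 CPM in WT and 4.872 to 6.907 CPM in cKO. The enolase gene Eno2 did not pass it either and lay lower with no overlap, at 8.205 to 9.956 CPM in WT and 5.888 to 8.078 CPM in cKO. Over all genes, 5.89% lay lower with no overlap and 6.41% higher. Of 13 genes of pyruvate entry, 1 lay lower by that measure: Dlat, a core subunit of pyruvate dehydrogenase, at -0.21 ± 0.08. Of 8 pentose phosphate genes, 1 lay lower: Pgls, the lactonase, at -0.30 ± 0.11. Of 18 tested genes of gluconeogenesis and glycogen, 1 lay higher: Pygb, a glycogen phosphorylase, at 50.13, 47.21 and 49.63 CPM in WT and 54.01, 69.99 and 58.26 CPM in cKO (log2 fold change 0.31 ± 0.12). The medians of these 4 lists were -0.06, 0.08, 0.01 and -0.01.

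Of 13 tested genes of oxygen sensing, 1 had an unadjusted p under 0.05: Cul2, the scaffold of the ubiquitin ligase that degrades HIF alpha subunits, at 52.98, 49.76 and 63.92 CPM in WT and 39.18, 46.52 and 47.8 CPM in cKO, a log2 fold change of -0.32 ± 0.13 (edgeR adjusted p = 0.752). Of 50 tested further hypoxia targets, 2 lay lower and 1 higher, a share near the 6.50% of all genes. Plod2, the lysyl hydroxylase that sets collagen cross-links, measured 1189, 1106 and 1224 CPM in WT and 966.2, 932.4 and 932.9 CPM in cKO, a log2 fold change of -0.31 ± 0.07 (edgeR adjusted p = 0.596). Anxa1, a phospholipid-binding protein, measured 856.4, 847.1 and 853.9 CPM in WT and 707.5, 719.7 and 702.1 CPM in cKO, a log2 fold change of -0.26 ± 0.07 (edgeR adjusted p = 0.605). Both were steady within each genotype and did not overlap. Jmjd6, an oxygenase gene, lay higher at 0.36 ± 0.13. The medians were -0.06 for oxygen sensing and -0.04 for the further targets.

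Markers of several cell types lay to one side of 0 in the same libraries. All 14 macrophage and leukocyte markers had a log2 fold change below 0 (median -0.31), with a summed level of 1016 to 1269 CPM in WT and 782.9 to 1002 CPM in cKO. All 12 fibroblast and synovium markers lay below 0 (median -0.38), at 10440 to 12700 CPM in WT and 8275 to 11410 CPM in cKO. All 16 erythroid markers lay above 0 (median 0.95), at 3005 to 3373 CPM in WT and 3201 to 4803 CPM in cKO. Of 19 tested chondrocyte markers 16 lay above 0 (median 0.20), with a summed level of 64210 to 69020 CPM in WT and 71790 to 77480 CPM in cKO. Acan went the other way with no overlap, at 1273 to 1440 CPM in WT and 707.8 to 988.7 CPM in cKO. None of the macrophage, fibroblast, erythroid or chondrocyte markers was at 0 in every library. The median log2 fold changes of the other marker lists were 0.22 for osteoblasts and osteocytes, -0.19 for osteoclasts, 0.40 for neutrophils, -1.27 for adipocytes, -0.455 for endothelium and -1.50 for skeletal muscle. The part of these cells in the lower levels of Pfkfb3, Hk2, Slc16a3, Ddit4 and Hif1a was not tested.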

How the data were processed

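RNA-seq of 6 cartilage samples, 3 WT and 3 cKO, was read from the authors' deposited table of raw read counts per Ensembl gene, grouped by title. Per the labels' protocols, full-length cDNA libraries came from an ultra-low-input kit. GRCm38, HISAT2 2.2.1 and featureCounts 2.0.1 appear in the submitters' processing notes, as do DESeq2 1.30.1, R 4.0.5 and FastQC 0.11.9; the sources used here give no settings. The authors' normalized table was not used.

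Symbols were matched for 55141 of 55401 identifiers with GENCODE M21. For Aldoa, which has 2 identifiers, the one with more reads was used. Genes were filtered with filterByExpr (16260 left), scaled by TMM and fitted in edgeR 4.0.16 under R 4.3.3 (glmQLFit, glmQLFTest, a group term alone, 4 residual degrees of freedom), with Benjamini-Hochberg adjustment over all genes and a threshold of 0.05. The SE is the size of the log2 fold change divided by the square root of F. With 3 against 3, exact permutation p-values cannot be below 0.1, and none was used. RPKM is CPM per kilobase of merged exons. Replicates of a group differed beyond sampling noise (chi-square per degree of freedom 31.38 to 36.53 over 6 pairs). The script was tested on simulated data.

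Of the 35 genes, values in every library are given for those with an unadjusted p under 0.05 or no overlap. They are also given for a fixed set of key genes and for the highest level per length in each role. Of the other lists, Dlat, Pgls and Jmjd6 are given as fold changes alone. Values for Adm, Car9, Car12, Pfkm, Slc2a12, Eno2, Pfkfb2, Matn1, Matn3 and Epyc were added after they were seen. The 35 genes and all lists were chosen with earlier results of these data known. Alternatives were DESeq2 1.42.0, limma-voom (limma 3.58.1), other scalings, other filters, robust dispersion, a replicate block and leaving out each library.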

Additional observations from a re-analysis of the deposited data

How the results depend on the processing

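The count of all genes with an adjusted p under 0.05, 1 with edgeR, was 91 with DESeq2 (47 lower and 44 higher, with no adjusted p for 11621 genes) and 3 without a filter; with single libraries left out it ran from 1 to 2 (2 without WT 3). Of the 35 genes, 1 passed with DESeq2 and 0 in the other fits. In DESeq2 Hk2, Ddit4, Slc16a3 and Hif1a had adjusted p-values of 0.0631, 0.0747, 0.124 and 0.458. The number of the 35 lower at an unadjusted p under 0.05 was 5 under every other setting, the same 5 genes, and 4 to 5 with single libraries left out. Of all genes, 2.27% to 3.27% lay lower under the other settings and 2.54% to 3.49% with single libraries left out. All these fits draw on the same 6 libraries, so their results are not independent. Egln3 took the place of Hif1a without WT 1 (log2 fold change -0.467), as did Adm without cKO 3 (-0.4738). The number higher was 0, and 0 to 2 with single libraries left out (Pfkfb4 without WT 1, Pfkm and Ndrg1 without WT 2, Mxi1 without WT 3, Car9 without cKO 1). With single libraries left out, 463 to 703 of all 16876 to 17254 genes tested lay higher. The median log2 fold change of the 35 genes was -0.0353 to -0.025 under the other settings and -0.0753 to -0.011 with single libraries left out.

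Of the 35 genes, 23 kept their sign in every fit that tested them and 12 did not. Car12 was not tested under the filter of at least 1 CPM in 3 libraries, which kept 34 of the 35. For Gapdh limma-voom gave -0.0261. With single libraries left out, the log2 fold change ran from -0.095 to 0.022 for Hk1, -0.0128 to 0.0652 for Gpi1, -0.0435 to 0.1522 for Pfkl, -0.2318 to 0.0055 for Pfkp, -0.0856 to 0.5841 for Pfkm, -0.0493 to 0.0456 for Aldoa, -0.1589 to 0.161 for Aldoc, -0.363 to 0.4814 for Gapdh, -0.114 to 0.0341 for Pgam1, -0.0473 to 0.1104 for Bnip3, -0.15 to 0.0614 for Ankrd37 and -0.1396 to 0.0823 for Kdm3a. The cause was not tested.

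With the replicate number as a block, 1 gene passed in all and 0 of the 35 did. At an unadjusted p under 0.05, 5 of the 35 lay lower, beside 2.61% of all genes. Same-numbered samples correlated at -0.028, 0.0989 and 0.0349 in their deviations from the group means. Samples with different numbers correlated at -0.0983 to 0.0739. With 3 samples per group, these values cannot show whether same-numbered samples share more than a number. Depth limits Car12, Ddit4, Car9 and Gapdh most, the 4 of the 35 genes with the lowest CPM.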
